A study of Mus musculus with 6 samples.

Results

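C-type lectin receptors were examined in bone marrow-derived macrophages (BMMs) during the first 24 h of osteoclast formation, with and without recombinant GDF11 (rGDF11). The genes are those whose array probe set is paired with exactly 1 symbol and whose symbol begins with Clec or Cd209, each taken at its brightest probe set over the 6 arrays. This gave 40 of the 19938 genes that such probe sets cover. The treated group (3 arrays) was cultured with 100 ng/ml M-CSF, 50 ng/ml RANKL and 100 ng/ml rGDF11, and the vehicle group (3 arrays) with the same M-CSF and RANKL alone. The BMMs of both groups came from tibial marrow of 9-week-old mice and were grown out with M-CSF before RANKL was added, so the vehicle cells were also on their way to osteoclasts. RNA was read on Affymetrix Mouse Gene 1.0 ST arrays, and levels are the authors' RMA values on the log2 scale. The labels call the samples biological replicates without saying if each had its own mouse, so the p-values refer to the spread among these cultures, which may be technical. A probe set was called changed at an adjusted p under 0.05 by limma. An exact permutation test of 3 against 3 arrays cannot go below p = 0.1, so none is given gene by gene.

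C-type lectin receptors are surface proteins that myeloid cells use to sense microbial sugars, glycolipids and remnants of dead cells. Activating members signal through the kinase Syk, either by an adaptor with an ITAM motif (FcRγ, encoded by Fcer1g, or DAP12, encoded by Tyrobp) or by a single tyrosine motif of their own, while inhibitory members carry an ITIM motif that recruits phosphatases. The same 2 adaptors carry costimulatory signals when RANKL drives a macrophage towards an osteoclast, and NFATc1 lies downstream. Not every gene selected by symbol is such a receptor, since the 4 genes Clec3a, Clec3b, Clec11a and Clec18a encode secreted proteins and Clec16a encodes an intracellular regulator of autophagy.

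Most of the genes that changed were lower with rGDF11. Of the 40, 2 were higher, 14 were lower and 24 did not pass the test, so 40% were called, against 16.0% of all 23410 probe sets tested. By direction, 2 of 40 were higher against 7.31% of all probe sets, and 14 of 40 were lower against 8.64%. The median log2 difference, rGDF11 minus vehicle, was -0.01 over the 40 genes and 0.02 over all probe sets tested. At the fold change of 1.5 and unadjusted p under 0.01 that the study's methods name, here with limma's p (2.06% of all probe sets higher, 2.96% lower), 6 were lower, namely Clec4a1, Clec4a3, Clec10a, Clec2i, Clec12a and Clec4d, while the 2 higher genes were 1.45-fold and 1.31-fold higher. With the p of the methods' t-test 5 were lower, since Clec10a missed it (unadjusted p = 0.0179). In 22 genes the arrays of the groups did not overlap, 5 with every rGDF11 array above and 17 with every rGDF11 array below the vehicle arrays, against 32.9% of all probe sets. Only 13 of the 40 were brighter than the median probe set, and 9 of these were called (69.2%), against 27.2% of all probe sets above that median. The counts by role given below are small, are to be read against these shares over all probe sets, and were not tested.

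The 2 largest decreases, of Clec4a1 and Clec4a3, lie in a run of neighbouring receptor genes on chromosome 6 that also holds their relative Clec4a2, which was not called. The promoters of these genes, of Clec12a (the brightest of the 40) and of Clec5a (the brightest that was higher) are therefore shown, from RefSeq on build GRCm38.p6, as 250 bases before and 50 after the annotated start, 5′ to 3′ on the gene's strand. They lie at chr6:122921598-122921897 (plus strand, Clec4a1), chr6:122952394-122952693 (plus, the downstream of the 2 starts given for Clec4a3), chr6:123122440-123122739 (plus, Clec4a2), chr6:129349994-129350293 (plus, Clec12a) and chr6:40585756-40586055 (minus, Clec5a). Capitals mark matches, on either strand, to the letters searched.
Clec4a1: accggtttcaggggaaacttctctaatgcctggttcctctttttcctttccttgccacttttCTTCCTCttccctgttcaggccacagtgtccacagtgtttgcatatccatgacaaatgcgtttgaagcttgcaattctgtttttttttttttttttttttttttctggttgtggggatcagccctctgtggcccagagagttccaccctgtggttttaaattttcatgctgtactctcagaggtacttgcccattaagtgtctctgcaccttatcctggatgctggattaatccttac
Clec4a3: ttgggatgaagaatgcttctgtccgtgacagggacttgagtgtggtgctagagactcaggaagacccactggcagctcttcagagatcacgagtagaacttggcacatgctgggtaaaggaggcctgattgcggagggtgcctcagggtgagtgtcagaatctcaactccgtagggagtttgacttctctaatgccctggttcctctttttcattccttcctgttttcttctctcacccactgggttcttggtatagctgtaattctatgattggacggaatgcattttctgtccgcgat
Clec4a2: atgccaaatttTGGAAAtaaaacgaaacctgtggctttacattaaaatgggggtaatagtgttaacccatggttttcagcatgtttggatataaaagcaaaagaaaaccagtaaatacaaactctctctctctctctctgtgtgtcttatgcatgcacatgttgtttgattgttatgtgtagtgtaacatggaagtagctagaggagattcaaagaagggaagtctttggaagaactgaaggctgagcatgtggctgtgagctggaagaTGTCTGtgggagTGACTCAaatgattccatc
Clec12a: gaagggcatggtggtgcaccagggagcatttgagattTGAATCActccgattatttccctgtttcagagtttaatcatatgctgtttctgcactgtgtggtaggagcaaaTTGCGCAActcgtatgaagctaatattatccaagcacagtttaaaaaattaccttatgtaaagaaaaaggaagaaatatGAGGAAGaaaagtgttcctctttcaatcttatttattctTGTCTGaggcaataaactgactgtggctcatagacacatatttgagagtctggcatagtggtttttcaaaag
Clec5a: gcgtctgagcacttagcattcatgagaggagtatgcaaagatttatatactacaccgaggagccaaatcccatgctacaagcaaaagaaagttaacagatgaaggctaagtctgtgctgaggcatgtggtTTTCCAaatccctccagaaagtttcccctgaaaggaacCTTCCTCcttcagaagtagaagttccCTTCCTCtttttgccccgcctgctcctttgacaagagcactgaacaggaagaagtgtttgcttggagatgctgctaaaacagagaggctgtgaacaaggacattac
The promoter of Clec4a1 and this Clec4a3 entry share the run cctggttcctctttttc, 17 bases long. With the upstream Clec4a3 entry Clec4a1 shares no run over 8 bases, and with Clec4a2 none over 7. Such runs were also shared by genes with opposite calls, of 15 bases between Clec4b1 (lower) and Clec4b2 (higher) and of 14 between Clec4b2 and Clec4d (lower).

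Letters were searched for 6 factors in the 33 of 40 genes that have a promoter entry, on both strands. Of these 33 genes, 11 were lower, 2 were higher and 20 were not called. The counts by call below are to be read against that split and were not tested. The NFAT, PU.1 and IRF letters all contain GAA, so matches to different factors may overlap. The PU.1 letters GAGGAAG were in 7 of the 33 genes and in 15.4% of all 27025 genes with an entry. Of the 7, 1 was higher, 3 were lower and 3 were not called. Clec5a (higher) held these letters 2 times, 82 and 56 bases before its start, and Clec4a1 (lower) held them once, 188 bases before. The others were Clec12a and Clec4d (lower) and Clec16a, Clec18a and Clec2h (not called). The NFAT letters TGGAAA were in 9 genes (23.9% of all), of which Clec5a was higher, Clec2d, Clec4b1 and Clec4a3 (in its upstream entry) were lower, and 5, among them Clec4a2, were not called. The Smad letters CAGACA were in 5 genes (23.6% of all), 1 of which, Clec12a, was lower. The AP-1 letters TGANTCA were in 8 genes (8.97% of all), of which Clec12a and Clec2g were lower and 6 were not called. The C/EBP letters TTGCNNAA were in 6 genes (12.2% of all), 3 of them lower and 3 not called. The IRF letters GAAANNGAA were in 7 genes (9.76% of all), 3 of them lower and 4 not called. A match describes the letters in this window only, and the downstream Clec4a3 entry shown held none of the 6.

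The group of inhibitory receptors and the Dcir family held the 2 largest decreases, both in Dcir family genes. Of its 6 genes, 3 were lower and 3 did not pass the test. Clec4a1 and Clec4a3 were placed here by family, and whether they carry an ITIM motif was not examined. Of the receptors described below as inhibitory or ITIM-bearing, Clec12a was lower, and Clec4a2, Clec4a4 and Clec12b were not called. Clec4a3, which encodes Dcir3, measured 7.67, 7.63 and 7.28 on the rGDF11 arrays and 9.40, 9.65 and 9.38 on the vehicle arrays. Every rGDF11 array lay far below every vehicle array, by a mean log2 difference of -1.95 (SE 0.12, adjusted p = 5.1e-05), which is 3.87-fold lower. Clec4a1, which encodes Dcir4, measured 7.17, 7.18 and 7.04 with rGDF11 and 9.01, 9.22 and 8.96 with vehicle. It was 3.81-fold lower (log2 difference -1.93, SE 0.09, adjusted p = 1.43e-05), again with no overlap. Among the 19938 genes, ordered from the lowest log2 difference, Clec4a3 ranked 48 and Clec4a1 ranked 51.

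Clec4a2, which encodes the ITIM-bearing receptor Dcir1, belongs to the same run of genes and was not called. It measured 9.18, 9.48 and 9.33 with rGDF11 and 9.23, 9.36 and 9.12 with vehicle, and the groups overlapped. Its log2 difference was 0.09, with a 95% interval of -0.14 to 0.32 (adjusted p = 0.627). A decrease of the size seen for Clec4a1 and Clec4a3 lies outside this interval. Clec4a4, the ITIM-bearing Dcir2, averaged 4.32 ± 0.04 with rGDF11 and 4.28 ± 0.13 with vehicle (SD, n = 3 each), a dim signal at percentile 18.7 of all probe sets. Whether probes of these closely related copies share signal was not tested, since the probe sequences were not used here.

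Clec12a, which encodes MICL, an inhibitory receptor for uric acid crystals and dead cells, was the brightest of the 40 genes. It measured 11.36, 11.40 and 11.14 on the rGDF11 arrays, against 12.01, 12.09 and 11.90 on the vehicle arrays. This was 1.63-fold lower (log2 difference -0.70, SE 0.09, adjusted p = 0.00139), and the arrays did not overlap. Its neighbour Clec12b, another ITIM gene, had a log2 difference of 0.10 at a dim level and was not called.

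**Figure D1:**
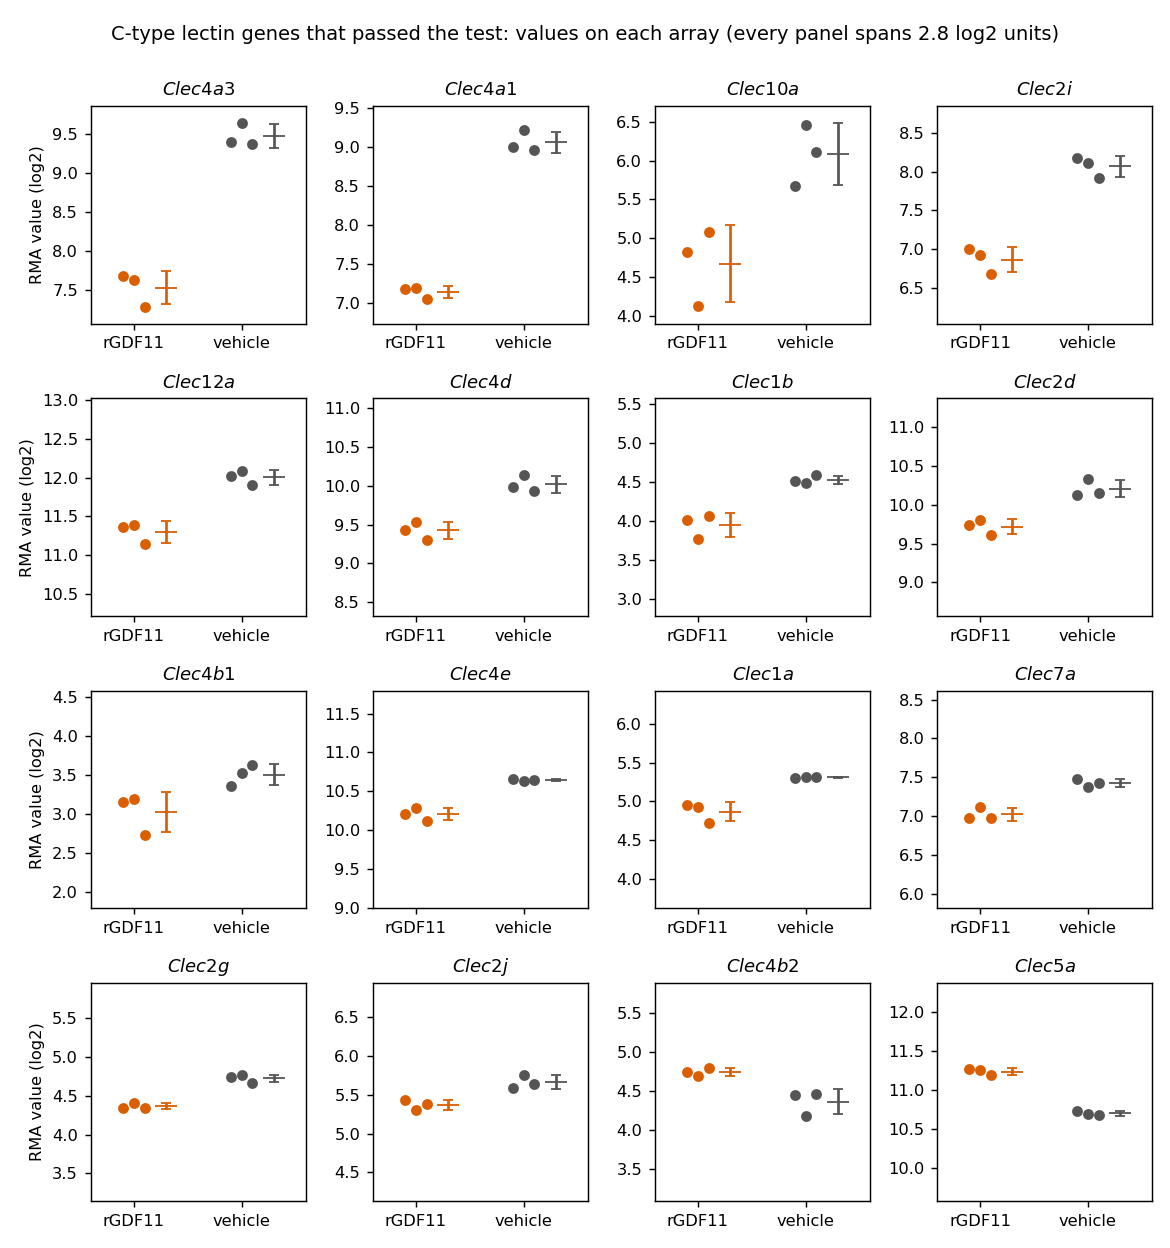
Log2 level on each array of the C-type lectin genes that passed the test, rGDF11 arrays on the left of vehicle arrays in every panel; points are single arrays, horizontal lines with bars are group means ± SD, and all panels span the same number of log2 units. Clec4a1 and Clec4a3 show the widest gaps between groups, and Clec5a and Clec4b2 are the 2 genes with rGDF11 arrays above the vehicle arrays.

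Adaptor-coupled activating receptors changed in both directions, with 2 of 6 higher, 3 lower and 1 not called. Clec5a, which encodes MDL-1, the DAP12-coupled receptor of myeloid cells, was the brightest gene that was higher. It measured 11.26, 11.26 and 11.19 with rGDF11, against 10.73, 10.69 and 10.67 with vehicle. All rGDF11 arrays were above all vehicle arrays, and the spread within each group was small (SD 0.04 with rGDF11 and 0.03 with vehicle). The gene was 1.45-fold higher (log2 difference 0.54, SE 0.06, adjusted p = 0.000751), which is just under the fold change of 1.5 of the study's methods.

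Clec4d and Clec4e, 2 of the FcRγ-coupled receptors, were lower. Clec4d, which encodes MCL, measured 9.43, 9.53 and 9.31 with rGDF11 and 9.98, 10.14 and 9.93 with vehicle, and was 1.51-fold lower (log2 difference -0.59, SE 0.09, adjusted p = 0.0027). Its partner Clec4e, which encodes Mincle, the receptor for mycobacterial cord factor, measured 10.21, 10.28 and 10.12 with rGDF11 and 10.66, 10.64 and 10.65 with vehicle. It was 1.36-fold lower (log2 difference -0.45, SE 0.06, adjusted p = 0.0028). Neither gene had overlapping arrays.

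Clec4n, which encodes the mannan receptor Dectin-2, measured 7.26, 7.38 and 7.31 with rGDF11 and 7.40, 7.85 and 7.39 with vehicle. The groups only just separated, and 1 vehicle array stood above the other 2. The log2 difference of -0.23 had a 95% interval of -0.52 to 0.06 (adjusted p = 0.286), so Clec4n was not called.

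The paralogues Clec4b1 and Clec4b2 had opposite signs at dim levels. Clec4b1 measured 3.15, 3.20 and 2.73 with rGDF11 and 3.36, 3.53 and 3.62 with vehicle (log2 difference -0.48, SE 0.13, adjusted p = 0.047). Clec4b2 measured 4.75, 4.70 and 4.80 with rGDF11 and 4.45, 4.17 and 4.46 with vehicle (log2 difference 0.39, SE 0.09, adjusted p = 0.024). The arrays of neither gene overlapped, but both calls were close to the threshold and each was lost when 1 array was left out, Clec4b1 for every array except the second rGDF11 array (adjusted p up to 0.159) and Clec4b2 without the first (0.0762) or the third (0.0793) rGDF11 array.

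Of the 3 receptors with a tyrosine activation motif of their own, 2 were lower. Clec7a, which encodes Dectin-1, the β-glucan receptor that signals through Syk and Card9, measured 6.97, 7.12 and 6.98 with rGDF11 and 7.48, 7.38 and 7.42 with vehicle. It was 1.32-fold lower (log2 difference -0.41, SE 0.07, adjusted p = 0.00595). Clec1b, which encodes CLEC-2, the podoplanin receptor best known from platelets, was dim and measured 4.01, 3.77 and 4.06 with rGDF11 and 4.52, 4.49 and 4.59 with vehicle. Its log2 difference was -0.58 (SE 0.09, adjusted p = 0.00357), again with no overlap.

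Clec9a, which encodes DNGR-1, the receptor by which cross-presenting dendritic cells detect actin of dead cells, measured 4.59, 4.95 and 4.83 with rGDF11 and 4.46, 4.31 and 4.54 with vehicle. All rGDF11 arrays were above the vehicle arrays, but the log2 difference of 0.35 did not pass (adjusted p = 0.0681). It passed only when the first rGDF11 array was left out.

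**Figure D2:**
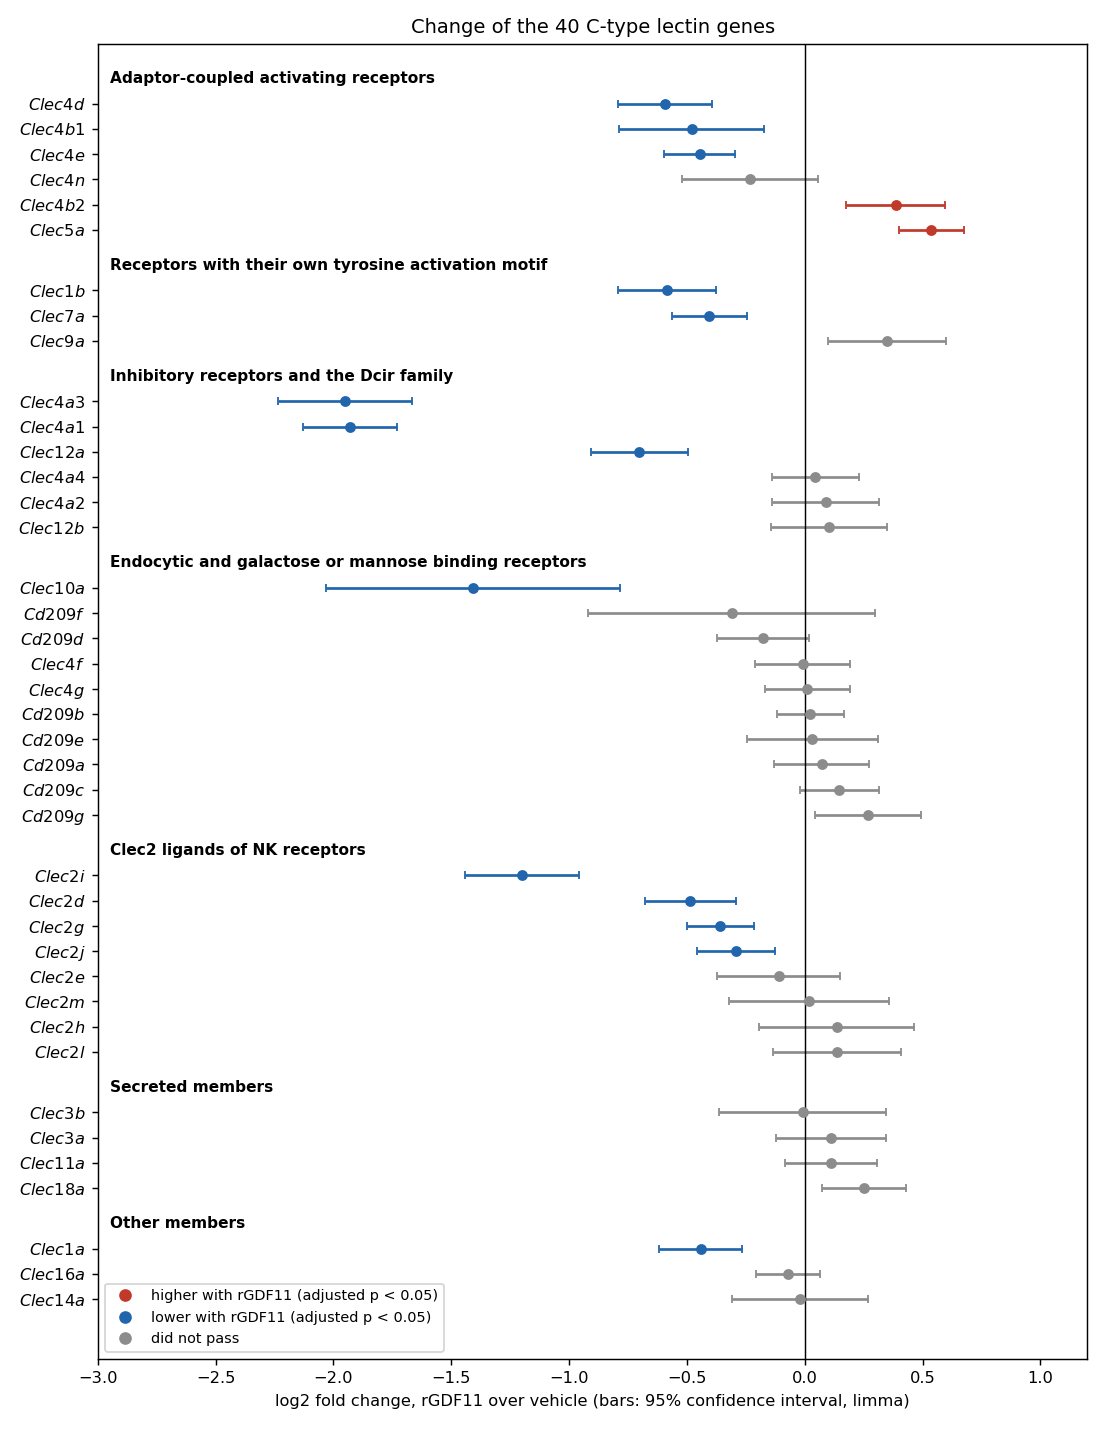
Log2 difference (rGDF11 minus vehicle) of all 40 genes, grouped by role, with 95% intervals from limma; colours mark the calls at an adjusted p under 0.05. The inhibitory and Dcir group reaches -1.95 at the Dcir family gene Clec4a3, while the Cd209 genes all lie between -0.31 and 0.27.

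Clec2 genes are known for encoding surface ligands of natural killer cell receptors. Of the 8 measured, 4 were lower, 1 of which (Clec2j) RefSeq annotates as a pseudogene, and 4 were not called. Clec2i, which encodes Clr-g, measured 6.997, 6.920 and 6.685 with rGDF11 and 8.171, 8.115 and 7.918 with vehicle. It was 2.30-fold lower (log2 difference -1.20, SE 0.10, adjusted p = 0.000201) and ranked 153 of 19938 from the lowest. Clec2d encodes Clr-b, a ligand of NKR-P1 receptors that was also described as osteoclast inhibitory lectin for its block of osteoclast formation in culture. It measured 9.74, 9.80 and 9.61 with rGDF11 and 10.12, 10.33 and 10.16 with vehicle, and was 1.40-fold lower (log2 difference -0.49, SE 0.08, adjusted p = 0.00609).

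The other 2 Clec2 genes that passed were dim. Clec2g measured 4.34, 4.41 and 4.34 with rGDF11 and 4.74, 4.76 and 4.67 with vehicle (log2 difference -0.36, SE 0.06, adjusted p = 0.0063). Clec2j measured 5.44, 5.31 and 5.38 with rGDF11 and 5.59, 5.76 and 5.64 with vehicle (log2 difference -0.29, SE 0.07, adjusted p = 0.0298). No arrays overlapped in these 4 genes, although the call of Clec2j was lost without any one array other than the first vehicle array (adjusted p up to 0.0957). The remaining Clec2e, Clec2h, Clec2l and Clec2m had log2 differences of -0.11 to 0.14, with overlapping arrays.

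Among the 10 endocytic receptors that bind galactose or mannose, Clec10a was lower and the other 9 were not called. Clec10a encodes MGL1, a receptor for galactose-type sugars and a marker of alternatively activated macrophages. It measured 4.82, 4.13 and 5.08 with rGDF11 and 5.68, 6.46 and 6.11 with vehicle. The arrays did not overlap, but the SD was 0.49 with rGDF11 and 0.39 with vehicle, against a median of 0.11 within groups over all probe sets. The log2 difference was -1.41 (SE 0.27, 95% interval -2.03 to -0.78, adjusted p = 0.0102), which is 2.65-fold lower, and it did not pass by the methods' t-test (adjusted p = 0.0978). The Kupffer cell receptor gene Clec4f, the sinusoidal endothelial receptor gene Clec4g and the 7 Cd209 genes, relatives of human DC-SIGN, were all dimmer than the median probe set.

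Of the 4 secreted genes none was called by limma, 1 having an unadjusted p under 0.05, and of the 3 remaining genes Clec1a was lower. Clec11a, which encodes the bone growth factor osteolectin, averaged 6.39 ± 0.14 with rGDF11 and 6.28 ± 0.05 with vehicle (log2 difference 0.11, 95% interval -0.08 to 0.31, adjusted p = 0.455). Clec18a had all rGDF11 arrays above the vehicle arrays but did not pass (log2 difference 0.25, adjusted p = 0.0655), and it passed only when the first vehicle array was left out. Clec3a and Clec3b (tetranectin) and the endothelial gene Clec14a had overlapping arrays. Clec16a averaged 7.67 ± 0.03 with rGDF11 and 7.74 ± 0.04 with vehicle (SD, n = 3 each), a log2 difference of -0.07 that was not called (adjusted p = 0.507). Clec1a, which encodes a receptor for fungal melanin, was dim and lower, with 4.95, 4.93 and 4.73 with rGDF11 and 5.30, 5.32 and 5.31 with vehicle (log2 difference -0.44, SE 0.08, adjusted p = 0.00628).

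**Figure D3:**
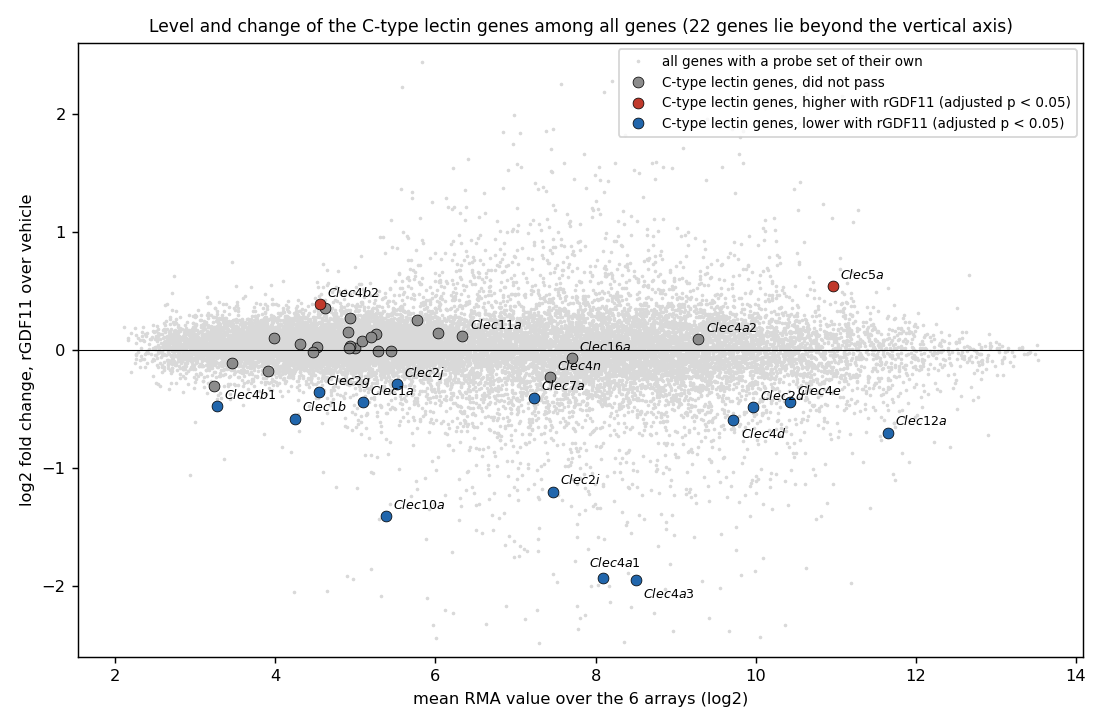
Mean log2 level over the 6 arrays (x axis) against the log2 difference, rGDF11 minus vehicle (y axis), for all genes as small grey points and the 40 C-type lectin genes as large points coloured by call; 22 genes lie beyond the y axis. Most bright C-type lectin genes lie below 0, with Clec5a above it, whereas 27 of the 40 lie at or below the median level.

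By position, 25 of the 40 genes are on chromosome 6, and these held 15 of the 16 calls (2 higher, 13 lower), Clec10a on chromosome 11 being the other. The 10 on chromosome 8, among them the Cd209 genes, held none by limma or by the methods' t-test. Of these, 2, Cd209g and Clec18a, had an unadjusted p under 0.05. Levels differed too, since 11 of the 25 and 0 of the 10 were brighter than the median probe set. Over all probe sets 16.0% were called, and 27.2% of those above that median. Whether position matters apart from level was not tested. A run of 9 neighbouring coding genes has the order Clec4a1, Clec4a3, Clec4a4, Clec4b1, Clec4a2, Clec4b2, Clec4n, Clec4d and Clec4e. Along it 5 were lower and 1 was higher, and genes that were not called stood between the lower ones, so the log2 difference ran between -1.95 and 0.39 within the run. A second run, of 7 genes on the same chromosome, has the order Clec2m, Clec12a, Clec12b, Clec1b, Clec9a, Clec1a and Clec7a, with 4 lower and 3 not called. Neighbouring genes are no independent samples of the treatment, and several are copies of each other.

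**Figure D4:**
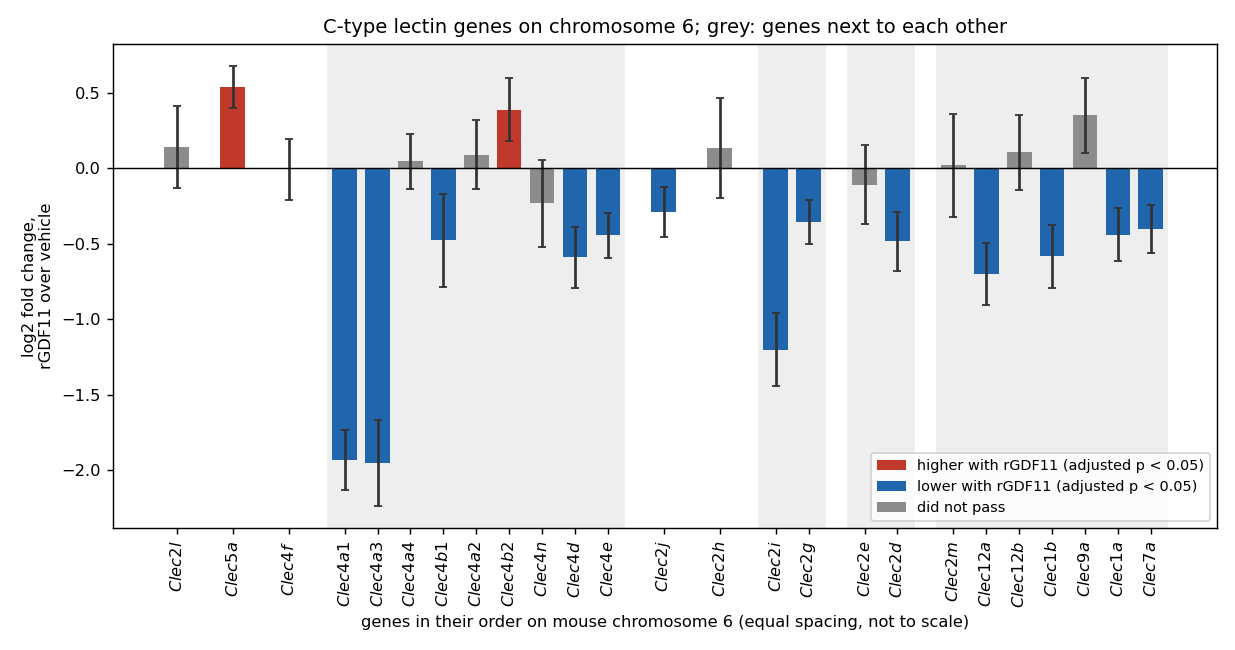
Log2 difference, rGDF11 minus vehicle, of the 25 C-type lectin genes of chromosome 6 in their order along the chromosome (evenly spaced, not to distance), as bars from 0 with 95% intervals; shading marks runs with no other coding gene between them. Clec4a1 and Clec4a3 at the start of the run of 9 are lowest, and Clec4a2 in its middle lies near 0.

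The genes through which these receptors signal changed in both directions. Of 47 genes listed for the pathway, 43 had a probe set of their own, of which 7 were higher, 7 lower and 29 not called (32.6% called), with a median log2 difference of 0.02. Since 34 of the 43 were brighter than the median probe set, the nearer comparison is the 27.2% called among such probe sets. Both adaptors were bright and were not called. Fcer1g averaged 12.77 ± 0.04 with rGDF11 and 12.81 ± 0.03 with vehicle (log2 difference -0.04, 95% interval -0.18 to 0.10), and Tyrobp averaged 12.03 ± 0.08 with rGDF11 and 12.12 ± 0.05 with vehicle (log2 difference -0.10, 95% interval -0.25 to 0.06). The kinase gene Syk measured 9.24, 9.29 and 9.02 with rGDF11 and 9.49, 9.43 and 9.58 with vehicle, a log2 difference of -0.32 at the edge of the threshold (adjusted p = 0.0466). Card9, the adaptor that links Syk to NF-κB, was at -0.22 and not called (adjusted p = 0.0719).

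Further along the pathway, Vav3 (log2 difference -0.87), Pik3cd (-0.44) and Prkcd (-0.32) were lower, as was the phosphatase gene Ptpn6 (-0.28), which encodes SHP-1. The kinase gene Src (1.07) and Malt1 (0.43), the protease that acts with Bcl10 and Card9, were higher. All 3 NFAT genes listed were higher, Nfatc1 by 1.33, Nfatc2 by 0.64 and Nfatc3 by 0.23, the last at the edge of the threshold (adjusted p = 0.0471), and Irf1 was lower (-0.92). Of 13 cytokine and other output genes, Ptgs2 (0.83) and Il1b (0.53) were higher, Ccl3 was lower (-0.73) and 10 were not called. Il1b was dim, at percentile 22.4 of all probe sets.

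Genes outside the Clec and Cd209 names that encode a C-type lectin domain also changed in part. Of 49 listed, 47 were measured, 4 were higher, 8 lower and 35 not called (25.5% called, against 16.0% of all probe sets, 12 of the 47 being brighter than the median), with a median log2 difference of 0.02. Mgl2, the sister gene of Clec10a on chromosome 11, measured 4.74, 4.97 and 4.52 with rGDF11 and 5.74, 5.68 and 5.50 with vehicle (log2 difference -0.90, adjusted p = 0.00195). The mannose receptor gene Mrc1 had the largest decrease of the list (-3.15), followed by the hyaluronan receptor gene Layn (-1.49), the matrix proteoglycan gene Vcan (-1.18) and Cd72 (-0.95), an ITIM receptor known from B cells. Cd93 (-0.87), Cd302 (-0.71) and the thrombomodulin gene Thbd (-0.27) were also lower. Higher were Cd207 (0.90), which encodes the Langerhans cell receptor langerin, the early activation gene Cd69 (0.76), Klrb1b (0.33), which encodes a receptor for the Clec2d product, and Sele (0.33). Klrb1b (percentile 15.6 of all probe sets), Sele (31.3), Mgl2 (34.4) and Vcan (45) were dimmer than the median probe set.

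**Figure D5:**
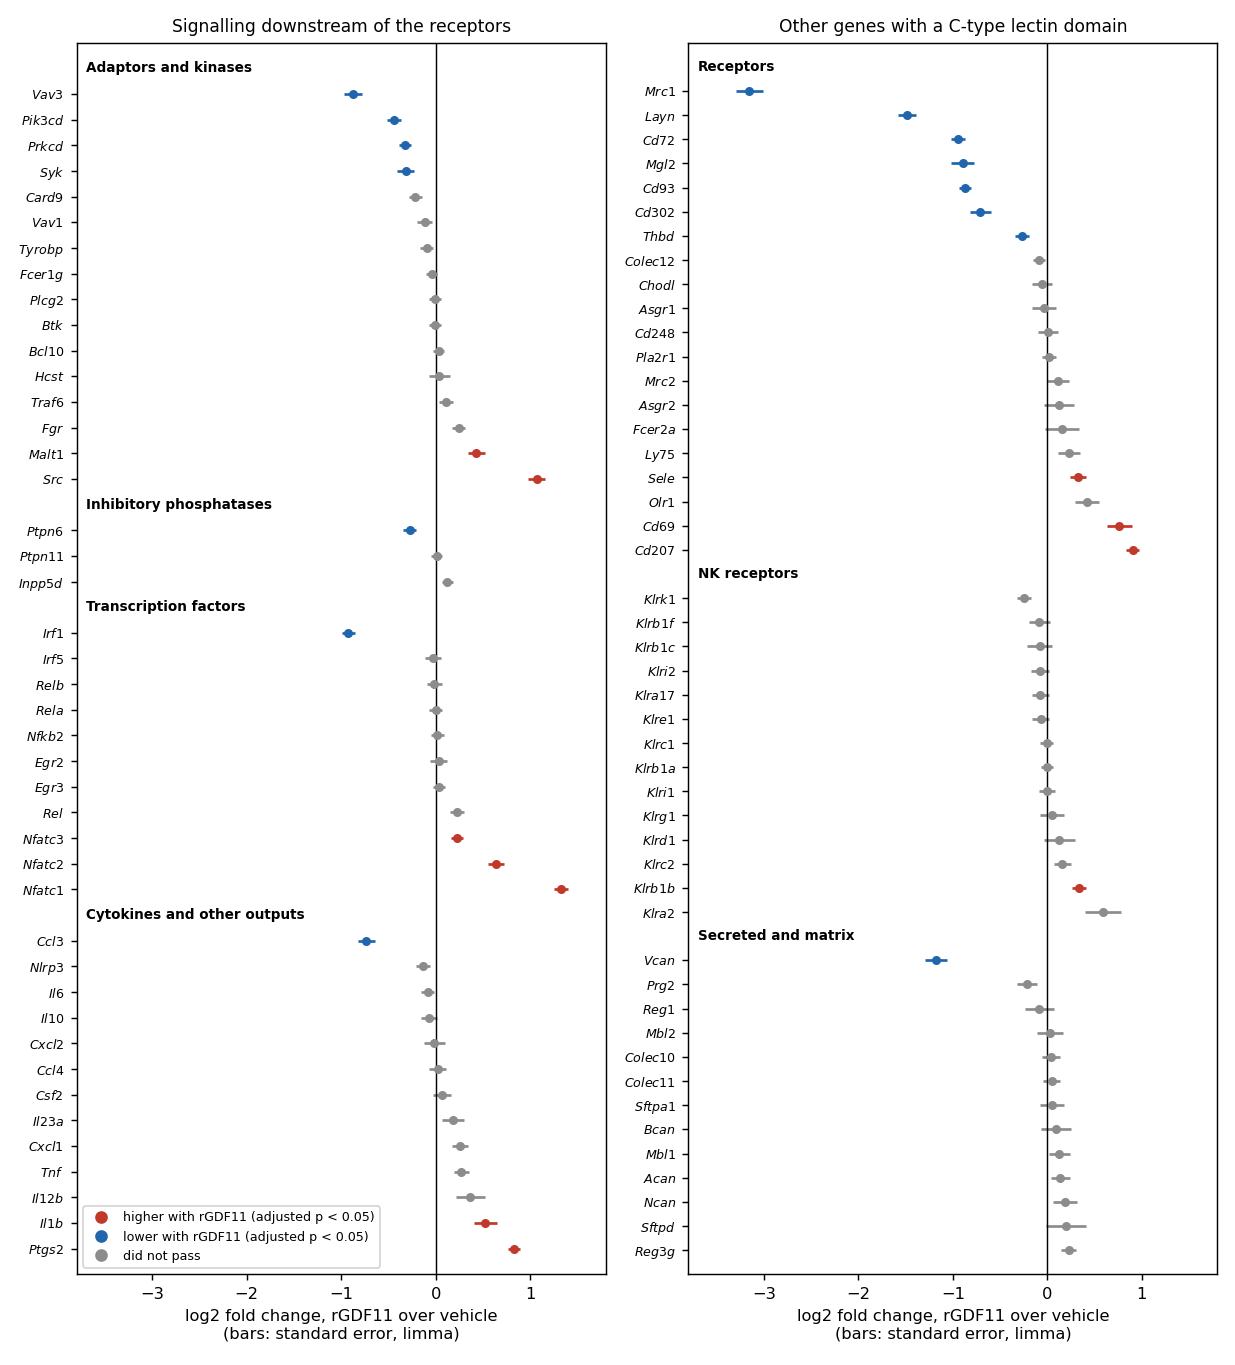
Log2 difference, rGDF11 minus vehicle, for the 43 measured genes of C-type lectin receptor signalling and the 47 other genes with a C-type lectin domain; bars are standard errors from limma and colours mark the calls. Nfatc1 and Src lie above 1, Fcer1g and Tyrobp lie near 0, and Mrc1 at -3.15 is lowest.

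Macrophage markers were bright on all arrays, and the mean log2 level of the list of 9 was 10.71 to 10.80 with rGDF11 and 11.21 to 11.23 with vehicle. Of these 9, 6 were lower, led by Fcgr1 (log2 difference -1.41), Cd14 (-1.06), Fcgr3 (-0.54) and Adgre1 (-0.51), while Csf1r (-0.08) and Lyz2 (-0.02) were not called. Osteoclast genes moved the other way, with 6 of 9 higher (Acp5 by 1.87, Atp6v0d2 by 1.585, Nfatc1 by 1.33 and Ocstamp by 1.09 the most), Mmp9 lower (-0.62) and list means of 8.17 to 8.29 with rGDF11 and 7.40 to 7.43 with vehicle. Monocyte markers (Vcan, Treml4 at -0.70 and Ccr2 at -0.44 lower, of 4) had means of 6.61 to 6.74 with rGDF11 and 7.22 to 7.36 with vehicle. Neutrophil markers (Cxcr2 at 1.37, Ngp at 1.0035 and S100a8 at 0.71 higher, of 9) had means of 6.51 to 6.60 with rGDF11 and 6.12 to 6.16 with vehicle. The other 6 neutrophil markers were not called. Of these, Elane (0.26), Camp (0.25), S100a9 (0.19) and Ltf (0.18) had positive log2 differences, and Ly6g (-0.22) and Mpo (-0.10) negative ones. All 9 macrophage markers and 7 of the 9 osteoclast genes were brighter than the median probe set. So were 3 of the 4 monocyte and 5 of the 9 neutrophil markers. Of such probe sets 27.2% were called in either direction, against 16.0% of all. The part of these marker shifts in the lower receptor genes was not tested. In such bulk samples fewer cells of a type and less RNA per cell cannot be told apart.

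Markers of other cell types gave the following values, and which cells the signal came from was not tested. Platelet markers, listed beside Clec1b, had means of 6.65 to 6.78 with rGDF11 and 6.87 to 7.04 with vehicle, and Pf4 (-1.10) and Ppbp (-0.34) of 6 were lower. Dendritic cell markers, listed beside Clec9a and Cd209a, had means of 6.24 to 6.40 with rGDF11 and 6.18 to 6.28 with vehicle. Of 10, Itgae (0.46), Cd24a (0.46) and Flt3 (0.25) were higher, Bst2 was lower (-1.25) and 8 were dimmer than the median probe set. Natural killer cell markers, which bear on the partners of the Clec2 ligands, were all dimmer than the median, and 0 of 7 were called by limma (1, Klrk1, had an unadjusted p under 0.05). Of 5 T cell markers Cd4 (-0.25) was lower, of 4 B cell markers Cd79b (-1.19) and of 6 endothelial markers Kdr (-0.50). Of 7 stromal markers Col1a2 (0.65), Col1a1 (0.63) and Pdgfrb (0.48) were higher. The other 4 stromal markers were not called, the lowest log2 difference being -0.26, and 4 of the 7 were dimmer than the median probe set. Lists this short are to be read against the 8.64% lower and 7.31% higher over all probe sets, and were not tested. Of probe sets above the median level 27.2% were called in either direction. The array medians were 6.11 to 6.18, and arrays correlated at 0.997 to 0.998 within a group and at 0.989 to 0.991 between groups over all probe sets, with no array standing apart.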

How the data were processed

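RNA of 6 BMM cultures was read on the Affymetrix Mouse Gene 1.0 ST platform. Normalization over the arrays was by the authors, with the robust multichip average (RMA), and the deposited log2 values, 1 per probe set and array, were used as they are. The submitters' processing notes name Transcriptome Analysis Console 3.0. Background correction and the summary over probes are thus in the values already. Precision is limited by having 3 arrays a group, and depth does not apply.

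Probe sets were named through the platform's annotation (21789 with 1 symbol, 1621 with several, 12146 rows with none left out). All 40 genes matched by Entrez identifier a mouse gene table of assembly GRCm38.p6, which changed 0 symbols and was used for names and gene order only. In R 4.3.3 the groups were fitted by limma 3.58.1 (lmFit, then eBayes, no trend), two-sided, and p-values were adjusted by Benjamini-Hochberg over 23410 probe sets. The steps were tested on simulated data. Intervals are 95% and come from the same fit.

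The genes, the lists (receptor signalling, other lectin domain genes, markers of 11 cell types) and the motifs were chosen with earlier results of these data known. Named are all genes that passed, those not passing that are brighter than the median, and in the other lists those that passed, up to 4 per direction, with Fcer1g, Tyrobp, Syk and Card9. Clec9a, Clec18a, Clec14a, Clec12b, Clec4a4, Cd93, Cd302, Thbd, Csf1r, Lyz2 and Klrk1 and the genes named only in groups were added after their values were seen. So were the neutrophil markers that were not called. Alternatives covered the rows tested, dim rows, normalization, eBayes settings, single arrays left out, a block for the replicate number and the t-test of the methods.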

Additional observations from a re-analysis of the deposited data

How the results depend on the processing

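Of the 16 calls, 12 (Clec4a1, Clec4a3, Clec12a, Clec4d, Clec4e, Clec5a, Clec7a, Clec1b, Clec2i, Clec2d, Clec2g and Clec1a) held in every alternative that tested the gene, and no log2 difference changed sign among the 20 C-type lectin genes recomputed under each alternative (those called or brighter than the median). With all rows of the table tested, 1 C-type lectin gene was higher (Clec4b2 was lost, and so were Clec4b1 and Clec2j among the lower ones) and 2 other lectin domain genes were higher. With only probe sets above the median, 13 of the 40 were tested, of which 1 was higher and 8 were lower, and 2 other lectin domain genes were higher. By the methods' t-test, 1 was higher (Clec4b1, Clec4b2, Clec2j and Clec10a were lost) and 1 other lectin domain gene was higher. That only some passed under the filter on dim rows follows from fewer genes being tested. For the rest the cause was not tested. Leaving out each array in turn gave 1 to 3 higher and 12 to 13 lower C-type lectin genes, 1129 to 1357 higher and 1415 to 1725 lower probe sets, 5 to 7 higher and 4 to 6 lower signalling genes, and 2 to 5 higher and 7 to 7 lower other lectin domain genes. The lowest of these, 1129 probe sets and 4 signalling genes, came without the first rGDF11 array. With the replicate number as a block, 2 genes were higher and 12 lower, and Clec4b1 and Clec2j were lost. Same-numbered arrays deviated from their group means with correlations of 0.06, 0.34 and -0.001, and differently numbered ones with -0.322 to 0.275. With 3 arrays a group, such values cannot show whether a shared number marks a pairing. Among the 40 genes only Clec4g has a second probe set, which was not called by limma either (log2 difference -0.04, adjusted p = 0.871). Second probe sets of the other genes named were not examined. Signals near the low end of the scale, as for 27 of the 40 genes, limit what a fold change can show.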
